A study of Homo sapiens with 8 samples.

Results

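The genes described here are the 32 DNA replication and S phase genes of a list given by symbol: the helicase subunits MCM2 to MCM7, factors that load and activate the helicase, the sliding clamp and its loader, enzymes of priming and nucleotide synthesis, chromatin factors, 2 E2F transcription factors and 2 regulators of the fork and of protein turnover. All 32 were matched to 1 gene each among the 58302 genes of the count table, and all 32 passed the filter on low counts. They were followed in 8 libraries of messenger RNA from tumours that T24 cells formed in mice. T24 is an established human bladder cancer line. The 4 control libraries came from T24 tumours, and the 4 DDR1 libraries from tumours of T24 cells made to overexpress DDR1, a receptor tyrosine kinase that binds collagen. The labels give no time, treatment, mouse strain or age, no vector or promoter for DDR1 and no number of clones, and they do not say that each library is a separate animal. The p-values below therefore reflect library-to-library spread alone, and that spread may be technical.

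Replication starts when origins are licensed in G1: the origin recognition complex, CDC6 and CDT1 load the ring of MCM2 to MCM7 onto DNA. In S phase, kinases together with MCM10, CDC45 and the GINS complex turn the loaded ring into a working helicase, polymerase alpha with primase starts each strand, and PCNA, loaded by replication factor C, holds the polymerases in place. Most of these genes are transcribed at the G1 to S transition by E2F factors once the retinoblastoma protein has been phosphorylated, so their messenger RNA is widely used as a sign of cells entering the cycle.

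A sequence word of E2F factors was found in the promoters of many of these genes, but not of all. RefSeq promoters of 300 bases on GRCh38.p14, from 250 bases before the start site to 50 bases from it, were found for 30 of the 32 genes; MCM4 and MCM5 were not in the table. Each was searched on both strands for 3 E2F words, TTTCCCGC, TTTGGCGC and TTTCGCGC, of which the last 2 can overlap, and for CCAAT, the box bound by NF-Y. At least 1 E2F word was present in 18 of the 30 promoters (60.0%), against 2.79% of all 27305 promoters of the table and 4.40% of the 11385 that belong to genes tested here. CCAAT was present in 19 of 30 (63.3%), against 35.7% of all promoters. Other cell cycle lists, described below, carried these words to differing degrees. CCAAT was in 85.0% of the mitosis gene promoters found and in 54.2% of those of further replication genes. An E2F word was in 15.0% and 27.1% of them. A match describes the letters only, and no match says nothing about the factor. The 7 stretches below show DTL and RRM2, which had the smallest p-values among the 32 genes, MCM6 and MCM7 of the helicase, PCNA, CDT1 and E2F1 itself. Each is 80 bases, 5′ to 3′ on the strand of the gene, and capitals mark the E2F words and CCAAT or its reverse ATTGG.
DTL, chr1:212035668-212035747, plus strand, ending 1 base before the start site: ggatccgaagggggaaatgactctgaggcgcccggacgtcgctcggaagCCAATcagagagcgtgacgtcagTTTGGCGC
MCM6, chr2:135876490-135876569, minus strand: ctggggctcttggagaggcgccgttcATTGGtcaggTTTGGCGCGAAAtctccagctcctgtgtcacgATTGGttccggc
MCM7, chr7:100101398-100101477, minus strand: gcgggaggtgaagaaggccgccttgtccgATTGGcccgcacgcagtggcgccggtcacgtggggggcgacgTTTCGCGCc
PCNA, chr20:5126642-5126721, minus strand: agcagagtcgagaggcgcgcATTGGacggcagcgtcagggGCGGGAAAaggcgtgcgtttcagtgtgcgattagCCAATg
CDT1, chr16:88803709-88803788, plus strand: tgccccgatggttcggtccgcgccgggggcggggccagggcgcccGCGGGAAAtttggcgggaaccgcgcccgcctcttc
E2F1, chr20:33686386-33686465, minus strand: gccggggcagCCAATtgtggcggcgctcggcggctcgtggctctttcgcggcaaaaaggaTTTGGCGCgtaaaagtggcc
RRM2, chr2:10122611-10122690, plus strand: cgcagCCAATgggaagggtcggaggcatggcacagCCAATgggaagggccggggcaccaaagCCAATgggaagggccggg
The MCM6 stretch holds 2 overlapping E2F words of opposite strand, and PCNA and CDT1 carry TTTCCCGC as its reverse complement. The RRM2 stretch holds 3 CCAAT boxes, and none of the 3 E2F words was found in its 300 bases.

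Facts of the whole series come first because they bear on every comparison. Totals ran from 13716286 to 32271031 expected counts per library, and the 32 genes had between 78 and 7889 counts in a library. The targeted gene DDR1 stood at 138, 110, 210 and 149 CPM in the controls and at 159, 343, 427 and 810 CPM in DDR1 replicates 1 to 4. CPM is the usual depth-scaled count, here after TMM scaling. The log2 fold change of DDR1 was 1.52 ± 0.43 (SE, unadjusted edgeR p = 0.00612, exact two-sided permutation p = 0.0571, smallest possible 0.0286). The DDR1 level of the library labelled DDR1 replicate 1 goes against its label, being within the range of the controls. Every DDR1 title names sequencing lane 8, while controls name lane 7 or none, so lane and group cannot be told apart, and no named lane holds both groups for a within-lane value. The epithelial markers KRT7, KRT8, KRT18, KRT19 and EPCAM, fixed for the cancer cells together with the mesenchymal gene VIM, were all detected. The summed levels of 6 leukocyte, 6 fibroblast and 5 endothelial markers did not exceed 47.1, 44.0 and 76.1 CPM in any library. These are counts of human genes, while the tumours grew in mice, so they do not measure how many mouse host cells were present. Removal of mouse reads is not stated, so mouse reads may be included in these sums and in the counts of the 32 genes. Among the leukocyte markers, CD68 averaged 19.0 CPM over the controls and 29.99 over DDR1 libraries, while the defining gene PTPRC averaged 0.0716 and 0.0360. No marker was at 0 in all 8 libraries.

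The 32 genes were nearly level among the controls and spread widely, and together, among the DDR1 libraries. Summed over the 32 genes, the controls held 1824.4, 1818.0, 1742.8 and 1773.2 CPM, and DDR1 replicates 1 to 4 held 2076.2, 1489.2, 1118.4 and 1839.4 CPM. The 4 controls thus lay close together, the library labelled DDR1 replicate 1 lay above all of them, replicates 2 and 3 below all of them and replicate 4 just above the highest control. DDR1 replicate 3 had the lowest level of the 8 libraries for 30 of the 32 genes; over all genes tested, 12.7% had their lowest level there. The exceptions were RRM1, a subunit of ribonucleotide reductase, and RFC4, a subunit of the clamp loader, both lowest in control replicate 3. The library labelled DDR1 replicate 1 had the highest level for 13 of the 32 genes, against 13.7% of all genes. DDR1 replicate 4 had it for 8, against 17.4% of all genes. In bulk tumour RNA, fewer cells in S phase and less of each RNA per cell cannot be told apart.

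**Figure D1:**
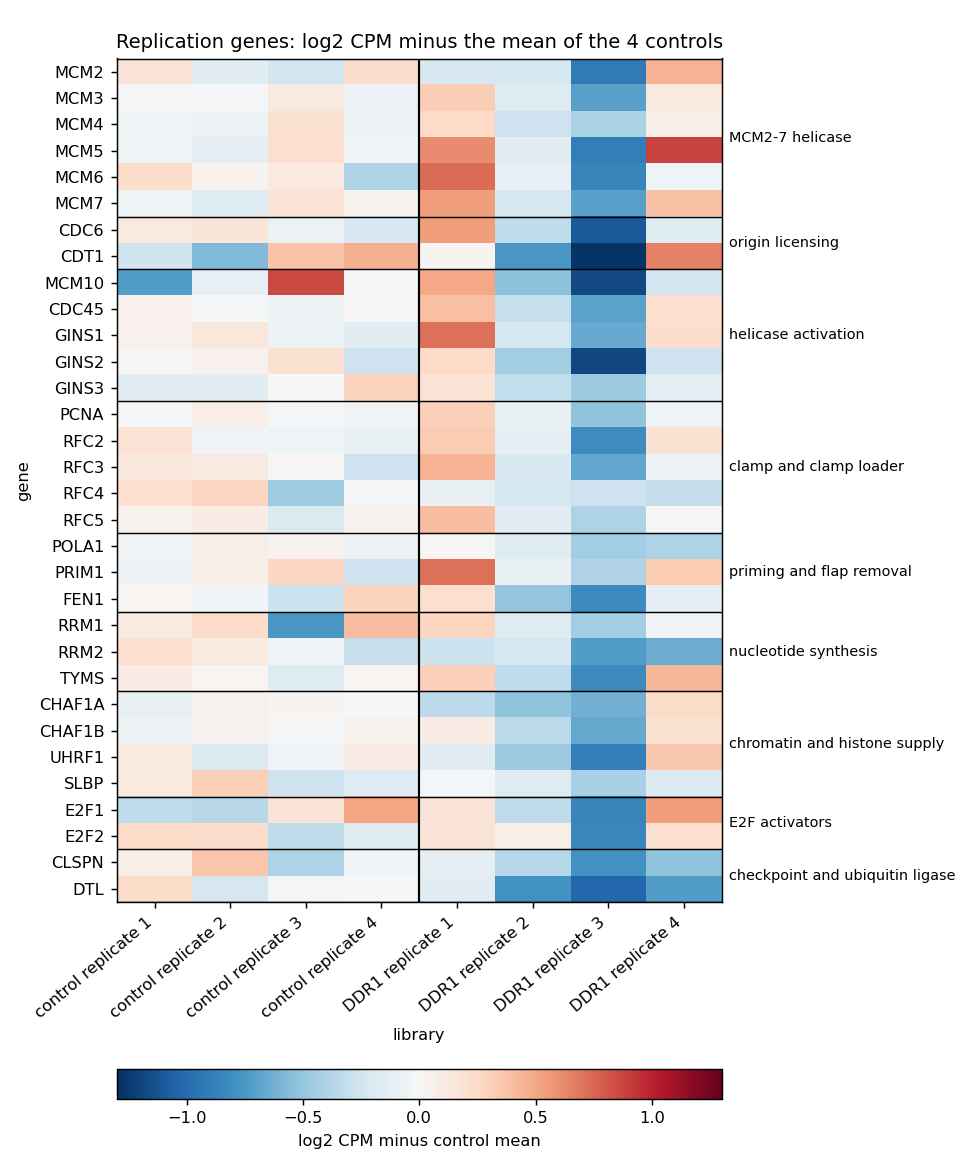
Heat map of the 32 replication genes (rows, grouped by role) in the 8 libraries (columns); colour gives log2 CPM minus the mean of the 4 controls. The DDR1 replicate 3 column is below the control mean for all 32 genes, the DDR1 replicate 2 column for 31, and the column of the library labelled DDR1 replicate 1 is above it for 24.

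Measured against the mean of the controls, the median of the 32 genes was -0.72 on the log2 scale in DDR1 replicate 3, with all 32 genes below. It was -0.23 in replicate 2, where 31 of 32 genes lay below the control mean and E2F2 alone above it. It was 0.25 in the library labelled DDR1 replicate 1 and 0.034 in replicate 4. TMM scaling centres each library on its genes at large, so these values are relative to that centre: the medians of all genes tested lay between -0.0040 and 0.016 by construction, and a shift shared by most genes could not be seen. DDR1 replicate 3 lay below all 4 controls for 30 of 32 genes (19.2% of all genes) and replicate 2 for 19 of 32 (12.6%). The library labelled DDR1 replicate 1 lay above all 4 controls for 16 of 32 (19.9%), and replicate 4 for 13 (23.9%).

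The genes kept much the same order among the DDR1 libraries. For 18 of 32 genes the order from high to low was replicate 1, 4, 2, 3, and for 9 it was 4, 1, 2, 3. The genes highest in replicate 4 were MCM2 and MCM5, CDT1, TYMS, CHAF1A, CHAF1B, UHRF1, E2F1 and E2F2. The 5 genes with another order were POLA1, SLBP, CLSPN, RRM2 and RFC4. The order differed from that of DDR1 itself: replicate 4, with the highest DDR1 level at 810 CPM, held 1839.4 CPM of the 32 genes, and replicate 3, at 427 CPM of DDR1, held the least.

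The SD of log2 CPM put numbers on this contrast. For the median gene of the 32 it was 0.186 among controls and 0.474 among DDR1 libraries, while over all genes tested the medians were 0.369 and 0.363. Over the 11070 genes at or above the mean level of the lowest of the 32 they were 0.297 and 0.291. The SD was larger in the DDR1 group for 28 of the 32 genes, against 49.3% of all genes; the difference in spread was not itself tested. Without DDR1 replicate 3 the count was 26 and the median SD of the DDR1 group 0.358. Each pair of the 32 genes was also correlated over the libraries, as a description, since all pairs share the same libraries and scaling. Over all 8 libraries 98.0% of the 496 pairs had a positive Pearson correlation, with a median of 0.65, where 49.9% of all gene pairs were positive. Among the 4 controls 49.2% of the 496 pairs were positive (all genes, 50.1%), among the 4 DDR1 libraries 99.0%, and over 7 libraries without DDR1 replicate 3 the share was 75.8%.

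Other cell cycle lists were placed in the same libraries to show how far the pattern reached. Of 60 further replication genes, 28 were lowest in DDR1 replicate 3, with a median of -0.41 against the control mean. Of 25 mitosis genes, 17 were lowest there (median -0.50), and 13 were highest in the library labelled DDR1 replicate 1. Of 59 tested replication-dependent histone genes, whose messenger RNA is made and stabilised in S phase with the help of SLBP, 49 were lowest in DDR1 replicate 3 (median -1.01) and 38 highest in the library labelled DDR1 replicate 1 (median 0.51). Histone genes are near-identical copies whose messenger RNA mostly lacks a poly-A tail, so values of single genes are uncertain and are not given. Since RNA was selected on poly-T beads, the whole list may also vary with how much RNA without a tail was carried over. That was not tested. Of 12 brakes on S phase entry, such as CDKN1A and RB1, 3 were lowest in DDR1 replicate 3.

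**Figure D2:**
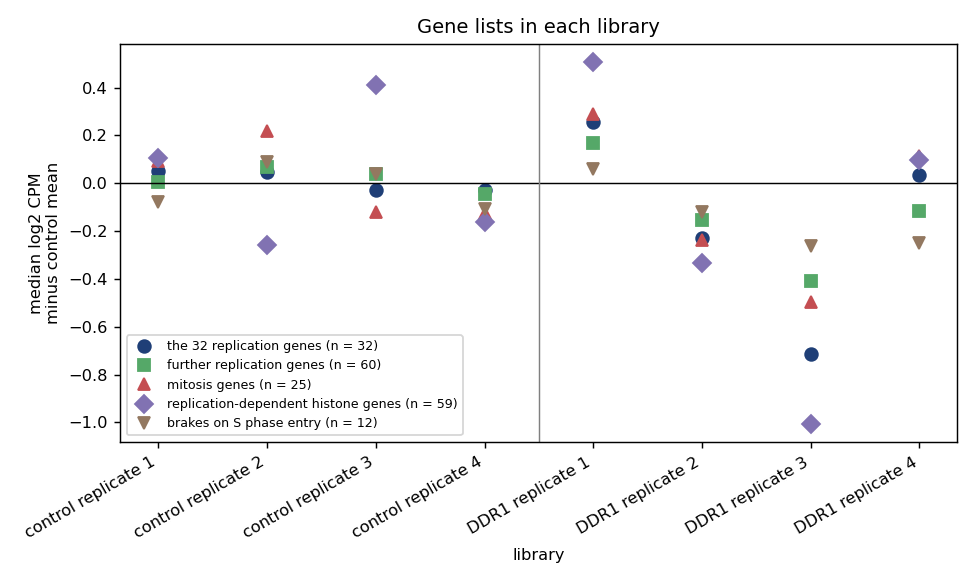
Median log2 CPM minus the control mean (vertical axis) of 5 gene lists in each of the 8 libraries (horizontal axis); each symbol is the median over the tested genes of 1 list. In DDR1 replicate 3 the medians run from -1.01 for histone genes to -0.26 for the brakes, and the controls lie near 0 with the histone genes spread most.

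The cancer cell markers were placed beside these values, and their part in the replication values was not tested. Summed over the 5 epithelial markers, the controls held 1267.4 to 1784.3 CPM, and DDR1 replicates 1 to 4 held 2005.3, 1275.8, 1095.1 and 2555.3 CPM. As for the replication genes, DDR1 replicate 3 lay below all controls and replicate 4 and the library labelled DDR1 replicate 1 above them. Unlike for the replication genes, where it was below all controls, DDR1 replicate 2 lay inside the control range. Replicate 4 was only just above the highest control for the replication genes, at 1839.4 against 1824.4 CPM. With VIM added the controls held 1575.3 to 2299.9 CPM and the DDR1 libraries 2436.7, 2031.5, 1245.5 and 3651.1 CPM. In DDR1 replicate 3 the 13 mitochondrially encoded genes summed to 18507.8 CPM, inside the control range of 9743.1 to 21234.1. The small RNAs of RNA polymerase III summed to 72602.2 CPM there, inside the control range of 63810.2 to 153911.3. Both ranges reach that far only through control replicate 2. Control replicates 1, 3 and 4 held 9743.1, 14231.8 and 12043.1 CPM of the mitochondrially encoded genes, all below DDR1 replicate 3. For the small RNAs they held 126063.7, 114876.0 and 153911.3 CPM, all above DDR1 replicate 3. In DDR1 replicate 3 the fibroblast, endothelial and leukocyte markers were at 35.9, 34.7 and 30.8 CPM. The control ranges were 9.0 to 44.0, 8.7 to 55.9 and 13.3 to 37.6 CPM, and each value lay within its range. As counts of human genes, these values do not measure mouse host cells. In the library labelled DDR1 replicate 1 the fibroblast markers were at 3.65 CPM, below the controls, with all 3 tested members at their lowest of the 8 libraries. In DDR1 replicates 2 and 4 the fibroblast markers were at 38.7 and 11.1 CPM, within the control range. Among the DDR1 libraries they were thus lower where the replication genes were higher. Among the controls, replicate 1 was highest for both, at 44.0 and 1824.4 CPM. Any link between the 2 was not tested.

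The groups were compared by label, DDR1 against control. Lane goes with group, and the library labelled DDR1 replicate 1 had a DDR1 level within the control range. A difference between the groups therefore cannot be assigned to DDR1. With edgeR's quasi-likelihood test 0 of the 32 genes passed at an adjusted p under 0.05 over the 18973 genes tested, as did 0.00% of all genes. At an unadjusted p under 0.05 there were 3 of the 32, DTL, RRM2 and CLSPN, all with lower values in the DDR1 group; the share of all genes was 4.17% in either direction and 2.24% lower. That count fell to 1 on leaving out control replicate 1, control replicate 2 or DDR1 replicate 3, and to 0 on leaving out both controls of lane 7. DESeq2 passed 0 of the 32 (0.0843% of all genes) and limma-voom 0 (0.00% of all genes), and at an unadjusted p under 0.05 each had 2 of the 32 (4.84% and 3.89% of all genes). The fold change was negative for 27 of the 32 genes, against 50.5% of all genes, with a median log2 fold change of -0.14 against -0.0030 over all genes. Without DDR1 replicate 3 the count was 13 of 32 and the median 0.035, without the library labelled DDR1 replicate 1 they were 31 and -0.25, and without DDR1 replicate 2 they were 23 and -0.086. Without the controls of lane 7 they were 17 and -0.030, and after summing the libraries whose titles start alike 14 and 0.032. Titles of DDR1 replicates 2, 3 and 4 start with R71, and that of the library labelled DDR1 replicate 1 alone with R70. Titles of control replicates 3 and 4 start with R69_2, and those of replicates 1 and 2 with R68 and R69. Each title also carries an M number after the prefix, which differs between libraries of the same prefix. What the prefixes and the M numbers stand for is not known here. The groups did not overlap for 0 of the 32 genes, where 2.40% of all genes did not (1.13% lower and 1.27% higher in the DDR1 group).

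**Figure D3:**
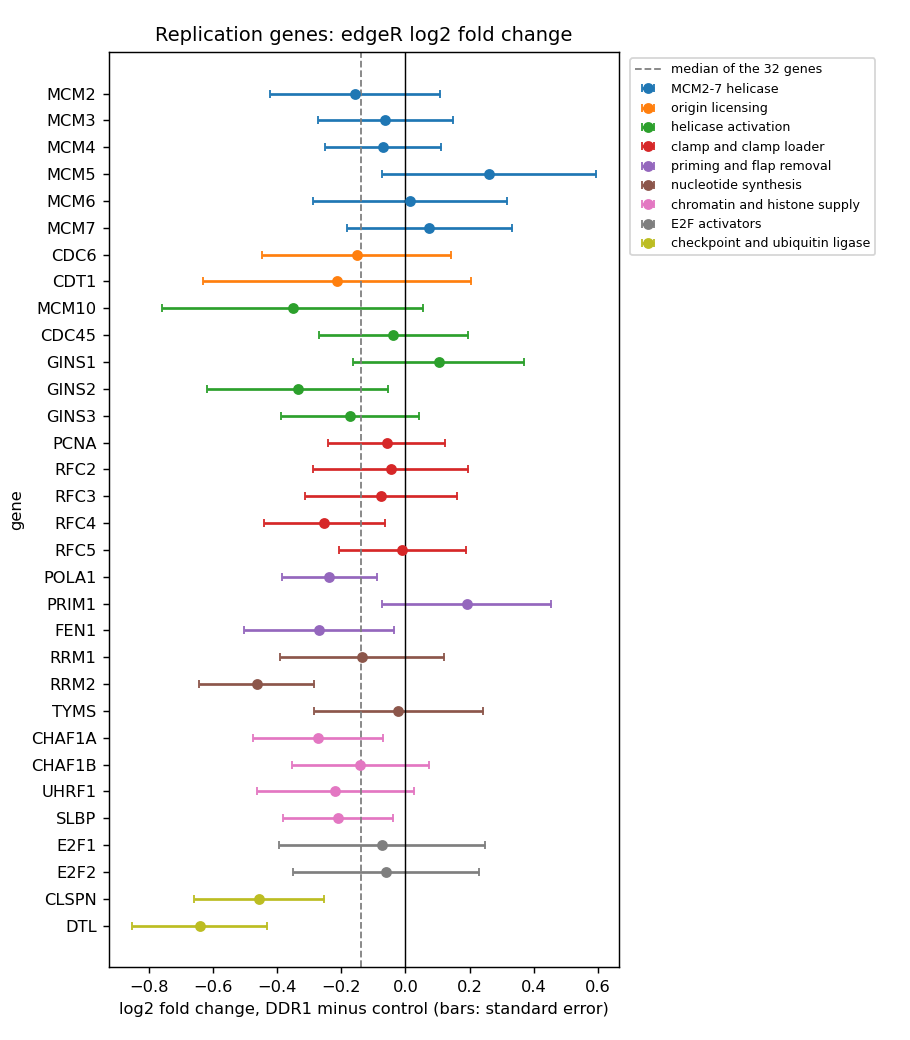
Log2 fold change, DDR1 minus control, of each of the 32 genes (points, coloured by role) with its standard error (bars), from edgeR over 4 control and 4 DDR1 libraries. DTL at -0.64, RRM2 at -0.46 and CLSPN at -0.46 lie farthest to the left, and MCM5 at 0.26 farthest to the right.

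**Figure D4:**
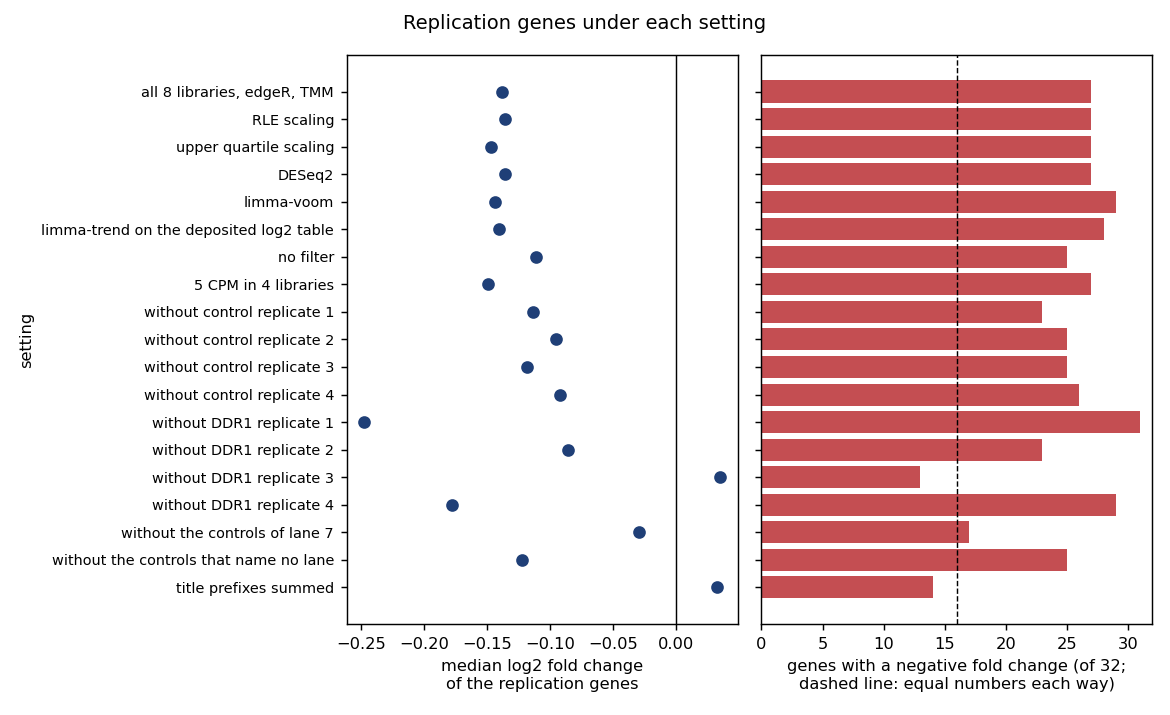
Left, median log2 fold change of the 32 genes (points) under each setting of libraries, scaling, filter or tool (rows); right, number of the 32 genes with a negative fold change (bars, from 0). The median is above 0 without DDR1 replicate 3 (0.035) and with title prefixes summed (0.032).

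The smallest p-values belonged to DTL, RRM2 and CLSPN, none of which passed after adjustment. DTL, the substrate receptor of the CRL4 ubiquitin ligase that degrades CDT1 in S phase (ENSG00000143476, GRCh38 chromosome 1, 212035553 to 212107400, plus strand), held 48.9, 35.6, 40.6 and 41.4 CPM in controls and 37.4, 23.9, 20.4 and 24.9 CPM in DDR1 replicates 1 to 4. Of the DDR1 libraries, 3 lay below every control, and the library labelled DDR1 replicate 1 overlapped them. Its estimate on the log2 scale was -0.64 ± 0.21 (SE, edgeR, unadjusted p = 0.0126, adjusted p = 0.9998), and it stayed between -0.85 and -0.53 with any 1 library left out. CLSPN, claspin, which links the fork to the checkpoint kinase CHK1 (ENSG00000092853, chromosome 1, 35720218 to 35769967, minus strand), held 75.5, 92.0, 54.3 and 70.2 CPM in controls and 65.6, 55.4, 41.7 and 50.1 CPM in DDR1 libraries. The groups overlapped through control replicate 3, and the log2 fold change was -0.46 ± 0.20 (SE, edgeR, unadjusted p = 0.0482, adjusted p = 0.9998).

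RRM2, the S phase subunit of ribonucleotide reductase, which makes deoxynucleotides (ENSG00000171848, chromosome 2, 10120698 to 10131419, plus strand), held 179, 167, 149 and 125 CPM in controls and 127, 131, 93.0 and 98.3 CPM in DDR1 libraries. Control replicate 4 was the 1 control within the DDR1 range. RRM2 overlaps AC007240.1 on the same strand and has pseudogenes, so its counts are uncertain. The log2 fold change was -0.46 ± 0.18 (SE, edgeR, unadjusted p = 0.0284, adjusted p = 0.9998). Its partner RRM1 averaged 128 ± 38.9 CPM over the controls and 117 ± 24.5 CPM over DDR1 libraries (SD, n = 4 each), with a log2 fold change of -0.14 (SE 0.26). TYMS, thymidylate synthase, held 26.1 ± 1.92 and 25.7 ± 9.63 CPM. Per kilobase of exon the 2 reductase subunits stood near each other in controls, RRM1 at 30.7 and RRM2 at 29.1 CPM per kilobase, and at 27.9 and 21.1 in the DDR1 group.

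The 6 subunits of the MCM2-7 ring had fold changes on both sides of 0, 3 negative and 3 positive, with a median of -0.024. MCM5 had the smallest p of the 6 (ENSG00000100297, chromosome 22, 35400063 to 35425430, plus strand). It held 77.7, 74.3, 94.2 and 78.8 CPM in controls and 124, 72.8, 43.3 and 149 CPM in DDR1 replicates 1 to 4. The DDR1 libraries thus lay on both sides of the controls, and the log2 fold change of 0.26 ± 0.33 (SE) did not pass (edgeR, unadjusted p = 0.454). MCM6 held 30.5 ± 5.39 and 30.8 ± 13.8 CPM, MCM2 81.0 ± 12.9 and 72.6 ± 27.9, and MCM7 108 ± 11.2 and 114 ± 42.2 (SD, n = 4 each). MCM3 held 105 ± 6.17 and 101 ± 28.6 CPM and MCM4 191 ± 18.1 and 182 ± 38.3. Although the ring holds 1 copy of each subunit, their RNA levels per kilobase differed. MCM3 was highest at 28.8 CPM per kilobase in controls and MCM6 lowest at 7.41, a ratio of 3.89. MCM6 was the lowest of the 6 in all 8 libraries. The merged exons used as divisor were 3650 bases for MCM3 and 4118 for MCM6, but 6973 for MCM4 and 7338 for MCM5. The order of the subunits thus depends in part on the annotation.

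The 2 licensing factors spread most among DDR1 libraries of all roles, with a median SD of log2 CPM of 0.763. CDC6, the ATPase that loads the ring (ENSG00000094804, chromosome 17, 40287633 to 40304657, plus strand), held 57.4, 59.0, 50.2 and 46.2 CPM in controls and 77, 42.1, 24.7 and 47.6 CPM in DDR1 libraries. Its estimate on the log2 scale was -0.15 ± 0.30 (SE). CDT1, which helps CDC6 load the ring and was picked after its values were seen because it had the lowest ratio of the 32 genes in DDR1 replicate 3, held 12.4, 9.94, 19.2 and 20.5 CPM in controls and 15.2, 8.73, 6.07 and 23.4 CPM in DDR1 libraries. In replicate 3 it stood at 0.392 times the control mean and in replicate 4 at 1.51 times, so that CDT1 was both the lowest ratio in replicate 3 and the second highest in replicate 4. DTL, whose ligase targets the CDT1 protein, was at 0.490 and 0.598 times its control mean in the same libraries.

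Among the factors that activate the helicase, GINS2, a subunit of the GINS complex (ENSG00000131153, chromosome 16, 85676198 to 85690073, minus strand), had the smallest p. It held 20.6, 21.2, 23.4 and 16.8 CPM in controls and 24.3, 14.9, 8.94 and 16.9 CPM in DDR1 libraries, and its log2 fold change of -0.34 ± 0.28 (SE) did not pass (edgeR, unadjusted p = 0.262). GINS1 held 43.6 ± 3.86 and 46.8 ± 19.1 CPM and reached 1.64 times its control mean in the library labelled DDR1 replicate 1, the highest ratio of the 32 genes there. GINS3 held 11.3 ± 1.75 and 10.1 ± 2.01 CPM, and CDC45, which completes the active helicase, 27.9 ± 1.02 and 27.2 ± 8.85 (SD, n = 4 each). MCM10 varied within controls as well, from 11 to 32.9 CPM, and averaged 19.6 ± 9.33 over the controls and 15.4 ± 7.53 over DDR1 libraries. Per kilobase GINS1 was highest and GINS3 lowest of the 4 GINS subunits in every library, with GINS4 at 2.53 CPM per kilobase in controls.

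PCNA, the sliding clamp (ENSG00000132646, chromosome 20, 5114953 to 5126626, minus strand), was the most abundant of the 32 genes per kilobase, at 105 ± 4.26 CPM per kilobase over the controls and 101 ± 23.6 over DDR1 libraries. It held 152, 164, 154 and 150 CPM in controls and 193, 145, 108 and 150 CPM in DDR1 libraries. Its estimate on the log2 scale was -0.058 ± 0.18 (SE). RFC4 (ENSG00000163918, chromosome 3, 186789880 to 186807058, minus strand) departed from the common order: it held 28.7, 29.8, 17.9 and 24.1 CPM in controls and 23.0, 21.0, 20.4 and 19.9 in DDR1 libraries, a log2 fold change of -0.25 ± 0.19 (SE, edgeR, unadjusted p = 0.213). It was also the gene least correlated with the others, with a median correlation of 0.25 over the 8 libraries. RFC4 and RFC5 overlap EIF4A2 and WSB2 on the other strand, RFC3 overlaps AL161891.1 on the same strand, and PCNA, RFC3 and RFC5 have pseudogenes, which makes their counts uncertain. The other loader subunits RFC2, RFC3 and RFC5 had log2 fold changes of -0.045, -0.076 and -0.0100.

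**Figure D5:**
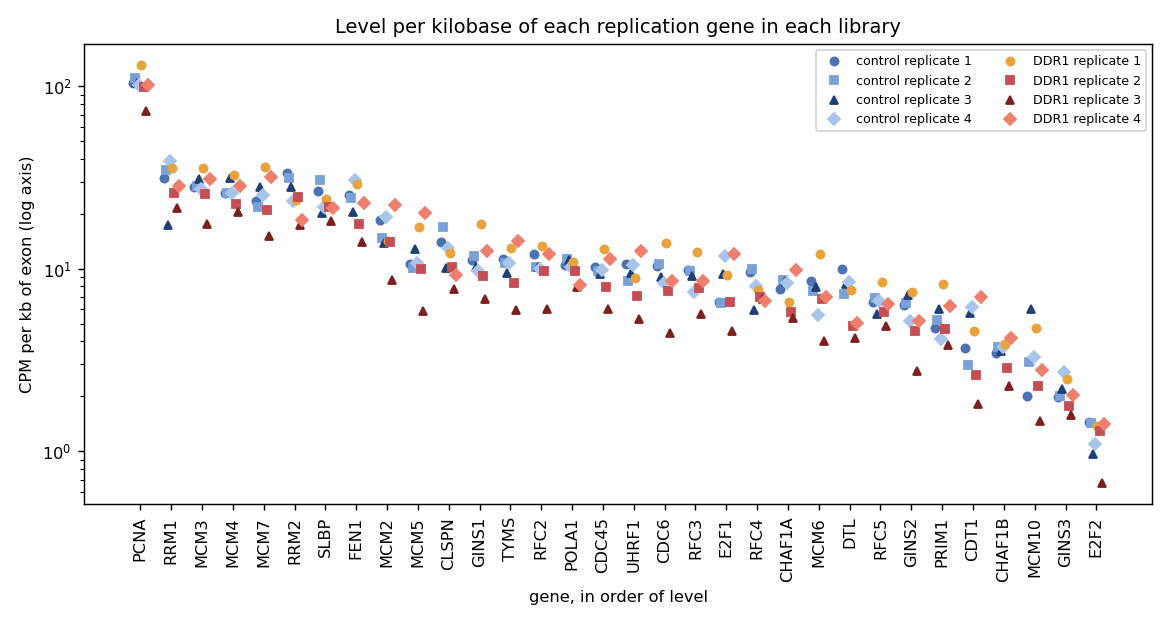
CPM per kilobase of exon (log axis) of each of the 32 genes, in order of level, in each of the 8 libraries (symbols). PCNA stands above all others at 105 CPM per kilobase in controls, E2F2 is lowest at 1.23, and the symbol of DDR1 replicate 3 is the lowest for 30 genes.

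At the start of strands, POLA1, the catalytic subunit of polymerase alpha (ENSG00000101868, chromosome X, 24693919 to 24996986, plus strand), held 66.2, 72, 70.8 and 65.0 CPM in controls and 69.3, 61.5, 50.1 and 51.7 CPM in DDR1 libraries. Of the DDR1 libraries, 3 lay below every control, and the log2 fold change was -0.24 ± 0.15 (SE, edgeR, unadjusted p = 0.143). PRIM1, the catalytic primase subunit, held 12.2 ± 1.93 and 14 ± 4.73 CPM, with a log2 fold change of 0.19. FEN1, the nuclease that trims Okazaki fragment flaps, held 62.4 ± 10.2 and 51.8 ± 16.3 CPM (SD, n = 4 each), with -0.27. PRIM1 and FEN1 overlap other tested genes on the same strand, NACA and FADS2, and POLA1 one on the other strand, EEF1B2P3, so their counts are uncertain.

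The 4 chromatin and histone supply factors among the 32 genes had negative fold changes, as did 50.5% of all genes, while of 6 further chromatin genes 3 were negative and 3 positive, with a median of 0.035. CHAF1B turned positive, at 0.0028, without DDR1 replicate 3. CHAF1A, the large subunit of the histone chaperone CAF-1 (ENSG00000167670, chromosome 19, 4402662 to 4445018, plus strand), held 33.3, 37.1, 36.8 and 36.0 CPM in controls and 28.2, 24.9, 23.2 and 42.2 CPM in DDR1 libraries. Replicates 2 and 3 and the library labelled DDR1 replicate 1 lay below the controls and replicate 4 above them, and the log2 fold change of -0.27 ± 0.20 (SE) did not pass (edgeR, unadjusted p = 0.207). CHAF1A overlaps UBXN6 on the other strand and CHAF1B overlaps MORC3 on the same strand, so their counts are uncertain too. CHAF1B held 18.5 ± 0.703 and 16.8 ± 4.48 CPM, and UHRF1, which guides maintenance DNA methylation, 50.4 ± 4.90 and 43.3 ± 15.8 (SD, n = 4 each). SLBP, the histone messenger RNA binding protein (ENSG00000163950, chromosome 4, 1692800 to 1712555, minus strand), held 54.2, 61.8, 41.2 and 44.3 CPM in controls and 49.0, 44.3, 37.2 and 43.9 in DDR1 libraries. Its estimate on the log2 scale was -0.21 ± 0.17 (SE), and its values spread less among DDR1 libraries (SD 4.85 CPM) than those of controls (9.44).

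The 2 E2F activators differed in level, E2F1 at 8.55 and E2F2 at 1.23 CPM per kilobase in controls. E2F1 (ENSG00000101412, chromosome 20, 33675683 to 33686404, minus strand) held 16.5, 16.2, 23.3 and 29.6 CPM in controls and 23.2, 16.4, 11.4 and 30.3 CPM in DDR1 libraries, with a log2 fold change of -0.072 (SE 0.32). The groups overlapped over nearly the whole range, and only DDR1 replicate 3 lay below the controls. E2F2 held 6.73 ± 1.34 and 6.45 ± 1.89 CPM and was the lowest of the 32 genes per kilobase in all 8 libraries. Split by promoter, the 18 genes with an E2F word had a median log2 fold change of -0.11 and the 12 without one -0.17; in DDR1 replicate 3 their medians were 0.554 and 0.637 times the control mean.

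Of the 60 further replication genes, 44 had lower values in the DDR1 group (50.5% of all genes), with a median log2 fold change of -0.091, and 0 passed at an adjusted p under 0.05 with edgeR, DESeq2 or limma-voom. At an unadjusted edgeR p under 0.05 there was 1 of the 60 (2.24% of all genes in this direction), CCNE1, cyclin E1, which drives S phase entry with CDK2. DESeq2 had 4 of the 60 and limma-voom 2, where the shares of all genes were 4.84% and 3.89%. CCNE1 held 8.70, 7.48, 10.9 and 11.3 CPM in controls and 8.31, 6.30, 4.05 and 4.65 CPM in DDR1 libraries, a log2 fold change of -0.72 ± 0.28 (SE, edgeR, unadjusted p = 0.0297, adjusted p = 0.9998). CDC25A, the phosphatase that activates CDK2, had -0.60 (14 ± 3.79 to 9.26 ± 2.36 CPM), MCM8 -0.33 (125 ± 12 to 99.3 ± 14) and PRIM2, the large primase subunit, -0.37. PRIM2 was the 1 gene of this list whose groups did not overlap, at 22.7, 23.8, 26.2 and 22.1 CPM in controls and 22.0, 18.5, 17.4 and 15.5 in DDR1 libraries, where 1.13% of all genes did not overlap in this direction. All 5 genes of the S phase cyclin group, CCNE1, CCNE2, CCNA2, CDK2 and CDC25A, had negative fold changes, with a median of -0.38.

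Of the 12 brakes on S phase entry, 10 had negative fold changes, against 50.5% of all genes. At an unadjusted p under 0.05 there were 0 with edgeR, 1 with DESeq2 and 0 with limma-voom. The shares of all genes were 4.17%, 4.84% and 3.89%. The repressor E2F6 had -0.54 (16.4 ± 3.71 to 11.3 ± 2.78 CPM) and CDKN1A, the p21 inhibitor of CDK2, -0.65 (80.5 ± 35.5 to 51.4 ± 21.1). E2F4 had -0.30 and RBL1, the p107 pocket protein, -0.25. Of the 25 mitosis genes, 15 had negative fold changes (50.5% of all genes), with a median of -0.086. None had an unadjusted p under 0.05 with edgeR, DESeq2 or limma-voom, where the shares of all genes were those just given. The centromere histone CENPA had -0.53 (7.32 ± 0.919 to 5.06 ± 1.79 CPM), CENPE -0.26, DLGAP5 0.32 and MKI67, the proliferation marker Ki-67, -0.21 (721 ± 85.7 to 624 ± 147 CPM). Of the 59 tested histone genes, 42 had negative fold changes (50.5% of all genes), with a median of -0.13.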

How the data were processed

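RNA from homogenised tumours was selected on poly-T beads and sequenced as 150 bp paired ends, per the labels' protocols. The submitters' processing notes name STAR 2.7.5, RSEM 1.3.1, Trim Galore 0.6.4 and FastQC 0.11.9, with the build GRCh38. The sources used here do not state annotation, settings, strand or removal of mouse reads. The deposited expected counts per gene were rounded to whole numbers. The authors also deposited TMM-normalized log2 values, used for limma-trend as they stand, since they were already log2 where a linear scale with an added 1 had been planned for; the copies of these values deposited for single libraries were not used. Identifiers were matched to GENCODE 29 (58039 of 58302). Of the 32 genes, 13 overlapped another tested gene and 6 share a name with pseudogenes, which makes their counts uncertain.

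Genes were kept by filterByExpr (minimum count 10), leaving 18973, scaled by TMM and tested with edgeR 4.0.16 (quasi-likelihood, Benjamini-Hochberg over all genes; limma 3.58.1, DESeq2 1.42.0, R 4.3.3). The standard error is the fold change divided by the root of F. Log2 CPM used a prior count of 2; CPM per kilobase used merged exon length. Replicate numbers follow accession order. Every pair of libraries differed by more than sampling noise (chi-square at least 26.9 times its degrees of freedom). Scripts were tested on simulated data. Members and lists were chosen with earlier results of these data known. Values in all libraries are given for the 8 genes of smallest p, the highest per kilobase and the smallest p of each role; up to 4 genes are named per further list. Alternatives were other scalings, tools, filters and left-out or summed libraries; the SD comparison without each library and the shift of DDR1 replicate 3 under other scalings were added after seeing the data. The protein motifs planned were not searched, as no protein table was used here.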

Additional observations from a re-analysis of the deposited data

Results flagged for a closer look

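Within each group of 4 libraries, the highest and lowest CPM of each of the 32 genes and of DDR1 were compared with their neighbours (gap over range above Dixon's 95% critical value for 4 samples), and 3 of 66 groups were flagged, where chance flags about 1 in 20. MCM4 stood at 218 CPM in control replicate 3, while the other controls lay between 180 and 182 CPM. RFC2 stood at 26.8 CPM in control replicate 1, against 21.9 to 22.7 CPM in the other controls. E2F2 stood at 3.64 CPM in DDR1 replicate 3, against 7.05 to 7.65 CPM in the other DDR1 libraries.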

How the results depend on the processing

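No paired analysis was run, because the labels state no pairing between the groups. The M number in the titles partly recurs across groups, but its meaning is not stated. None of the 32 genes passed at an adjusted p under 0.05 under any of the 18 other settings, while the genes called over all genes were 0 in each but DESeq2, which called 16. The count of the 32 genes at an unadjusted p under 0.05 was 0 without the controls of lane 7 and 0 with title prefixes summed, and 1 to 4 with 1 library left out. The number with negative fold changes was 17 without the controls of lane 7, 14 with title prefixes summed and 13 to 31 with 1 library left out, with medians of 0.032 for summed prefixes and -0.25 to 0.035 with 1 library left out. For further replication genes the median ran from -0.19 to 0.0071 with 1 library left out. For mitosis genes it was 0.11 without the controls of lane 7, 0.016 with summed prefixes and -0.22 to 0.060 with 1 library left out; the causes were not tested. The log2 fold change of DDR1 ranged from 1.05 to 1.79 with 1 library left out. Without the controls of lane 7 it was 1.31 and its unadjusted p was no longer under 0.05. The shift of the 32 genes in DDR1 replicate 3 was -0.70 with each other scaling and the deposited log2 values, and the larger SD in the DDR1 group held for 25 to 29 genes with 1 library left out. DTL, RRM2, CLSPN, POLA1, GINS2, FEN1, CHAF1A and UHRF1 had negative fold changes under all 18 other settings. Signs changed for other genes, none of them called, with these log2 fold changes: with limma-voom, MCM6 -0.075, MCM7 -0.0016; with limma-trend, MCM6 -0.062; with no filter on low counts, RFC5 0.017, TYMS 0.0040; without the controls of lane 7, MCM7 -0.0039, CDC6 0.019, CDC45 0.016, PCNA 0.0022, RFC2 0.062, RFC3 0.083, RFC4 0.035, RFC5 0.089, RRM1 0.011, TYMS 0.070, SLBP 0.059, E2F2 0.24; without the controls that name no lane, MCM6 -0.10, CDT1 0.26, MCM10 0.15, E2F1 0.32; with shared title prefixes summed, MCM3 0.078, MCM4 0.055, CDC6 0.073, MCM10 0.045, CDC45 0.11, GINS3 0.020, PCNA 0.076, RFC2 0.065, RFC3 0.078, RFC5 0.13, RRM1 0.0034, TYMS 0.068, E2F1 0.12. With 1 library left out, the genes whose sign changed ranged as follows: MCM2 -0.42 to 0.032, MCM3 -0.22 to 0.10, MCM4 -0.19 to 0.033, MCM5 -0.013 to 0.51, MCM6 -0.32 to 0.22, MCM7 -0.12 to 0.27, CDC6 -0.48 to 0.062, CDT1 -0.61 to 0.036, MCM10 -0.72 to 0.020, CDC45 -0.22 to 0.13, GINS1 -0.18 to 0.29, PCNA -0.21 to 0.070, RFC2 -0.19 to 0.14, RFC3 -0.31 to 0.082, RFC5 -0.18 to 0.10, PRIM1 -0.034 to 0.35, TYMS -0.20 to 0.17, CHAF1B -0.27 to 0.0028, E2F1 -0.32 to 0.13, E2F2 -0.16 to 0.13. Each of the 32 genes had at least 78 counts in every library, and each group holds 4 libraries, which limits the precision.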
